A study of Homo sapiens with 6 samples.

Results

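The epidermal growth factor receptor family and its ligands were followed, with the receptor tyrosine kinases MET and AXL, through mRNA and ribosome footprints of 786-O, a kidney cancer cell line of the clear cell type without functional VHL. The 9 members were taken by gene symbol from the deposited table and were EGFR, ERBB2, ERBB3, MET, AXL and the ligand genes TGFA, AREG, EREG and HBEGF, out of 19669 named genes. RNA-seq gives mRNA levels, and Ribo-seq counts the mRNA pieces shielded by ribosomes, so that footprints per mRNA track how heavily a message is occupied. Each assay had 3 libraries, 1 per label, named WT, MT and EV. The series title gives WT as PHYHD1-WT, MT as PHYHD1 lacking 107-130, and EV as empty vector, while the design text calls WT untreated and MT the overexpressing cells. PHYHD1, an iron- and 2-oxoglutarate-dependent dioxygenase, stood at 118 FPKM in WT, 109.5 FPKM in MT and 0.092 FPKM in EV, with footprints of 222 TPM in WT, 905 TPM in MT and 0 in EV. The WT library thus does not hold the endogenous level seen in EV, and libraries are named by label only. The promoter that drives the construct and whether each line is 1 clone are not stated in the labels. With 1 library per label and assay there is no replicate check and no p-value, and each comparison is between libraries.

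EGFR and ERBB2 are cell surface tyrosine kinases that pair up when EGFR binds a ligand, and ERBB3, whose kinase is nearly inactive, signals by pairing with them. The ligands are made as membrane precursors, released by ADAM proteases, and drive the RAS to ERK and PI3K to AKT cascades. MET is the receptor of hepatocyte growth factor and AXL that of GAS6. In VHL-null renal carcinoma cells TGFA is known as a target of hypoxia-inducible factor 2, and it feeds an autocrine loop through EGFR, while MET and AXL are known for high levels in such cells.

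All 7 markers of renal carcinoma and 786-O cells that were checked were present in all 6 libraries, at 55.8 FPKM and 74.5 TPM or more, and among them PAX8, the renal lineage factor, and VIM. PTPRC of leukocytes, PECAM1 and CDH5 of endothelium, DCN of fibroblasts and ALB of hepatocytes reached at most 0.071 FPKM and 0.256 TPM. COL1A1, a fibroblast collagen also made by mesenchymal tumour cells, stood at 1.54 FPKM in WT, 0.536 in MT and 0.449 in EV, and its part in the results was not tested. Genes at 1 unit or more numbered 10848 to 10897 in the mRNA libraries and 10400 to 10489 among footprints.

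The promoters of 3 ligands are shown first. The mRNA of EREG and HBEGF was above EV in WT and below EV in MT. AREG, the gene next to EREG in the RefSeq annotation with no annotated gene between them, was near 1 FPKM in all 3 libraries. EGFR and MET mRNA also lay above EV in WT and below EV in MT, so this pattern does not set the ligands apart. Among EREG, HBEGF, EGFR and MET, only HBEGF in WT differed from EV beyond the middle 90% of genes of similar level. RefSeq sequences on GRCh38.p14 run from 250 bases before the annotated start to 50 bases after it. Capitals mark matches, on either strand, to the cAMP response element TGACGTCA, the hypoxia response element core ACGTG, the TATA box TATAAA, the GC box GGGCGG or the AP-1 site TGACTCA. Matches of different motifs share no base in these sequences, while the last 2 GC boxes of HBEGF overlap by 1 base. EREG lies on the plus strand at chr4:74364895-74365194, AREG on the plus strand at chr4:74444886-74445185, and HBEGF on the minus strand at chr5:140346554-140346853.
EREG: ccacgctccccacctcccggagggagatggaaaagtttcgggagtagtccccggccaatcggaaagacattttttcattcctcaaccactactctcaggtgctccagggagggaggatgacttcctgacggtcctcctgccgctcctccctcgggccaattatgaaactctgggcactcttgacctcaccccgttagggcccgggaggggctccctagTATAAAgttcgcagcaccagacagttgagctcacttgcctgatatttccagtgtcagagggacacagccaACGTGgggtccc
AREG: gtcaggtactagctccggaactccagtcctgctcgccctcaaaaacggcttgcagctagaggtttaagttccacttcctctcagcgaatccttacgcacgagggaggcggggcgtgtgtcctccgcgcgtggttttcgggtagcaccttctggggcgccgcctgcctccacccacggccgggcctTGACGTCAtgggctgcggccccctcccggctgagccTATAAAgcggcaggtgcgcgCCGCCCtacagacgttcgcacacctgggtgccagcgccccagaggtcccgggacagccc
HBEGF: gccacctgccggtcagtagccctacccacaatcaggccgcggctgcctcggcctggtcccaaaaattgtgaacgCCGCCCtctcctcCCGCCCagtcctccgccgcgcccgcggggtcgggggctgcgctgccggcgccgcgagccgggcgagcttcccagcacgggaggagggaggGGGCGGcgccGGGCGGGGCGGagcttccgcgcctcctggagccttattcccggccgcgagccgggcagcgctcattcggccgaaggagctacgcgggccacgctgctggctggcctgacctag
EREG and AREG both held a TATA box, beginning at -32 and -29 from the start, a motif found in 11.5% of 35116 promoter entries of the same length. AREG also held a cAMP response element beginning at -65, found in 1.85% of entries, and EREG an ACGTG core at +39, found in 21.4%. HBEGF had neither TATA box nor cAMP response element but 5 GC boxes, a motif that 45.0% of entries hold. Bases were 57.7% G or C in EREG, 66.3% in AREG and 75.0% in HBEGF, against a median of 58.7% over all entries. Among the other members, ACGTG or its complement was matched in MET and AXL entries and TATAAA and TGACTCA in an EGFR entry that starts further downstream. The TGFA entries held no ACGTG. GC boxes do not set HBEGF apart, as EGFR (3), MET (3), AXL (2) and TGFA (4) entries and AREG (1) also held them. A match describes letters and not binding.

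MET, AXL, EGFR and TGFA were the abundant messages of the group. Mean mRNA levels over the 3 libraries, on the length-scaled FPKM scale, ran from MET (105.8 FPKM, 96.6 to 117), AXL (95.7, 87.1 to 111), EGFR (79.3, 76.9 to 82.2), TGFA (71.5, 68.2 to 77.5), ERBB2 (30.3, 26.9 to 36.0), EREG (23.8, 19.7 to 28.7), HBEGF (1.92, 1.10 to 2.89) down to AREG (1.28, 1.20 to 1.43). The ranges of MET and AXL overlap, as do those of EGFR and TGFA, of ERBB2 and EREG, and of HBEGF and AREG, so these neighbours did not separate beyond the spread over libraries, which also differ in label. Within each of the 3 libraries MET was above AXL and EGFR above TGFA, while the order of ERBB2 and EREG and that of HBEGF and AREG changed between libraries. ERBB3 was at most 0.123 FPKM and 0.029 TPM, below the minimum of 1 unit used for comparison, and enters no comparison. Among 58 human receptor tyrosine kinase genes, MET, AXL and EGFR had the 3 highest mRNA levels in each library, with 57.9% of the summed level in WT, 53.3% in MT and 55.8% in EV.

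**Figure D1:**
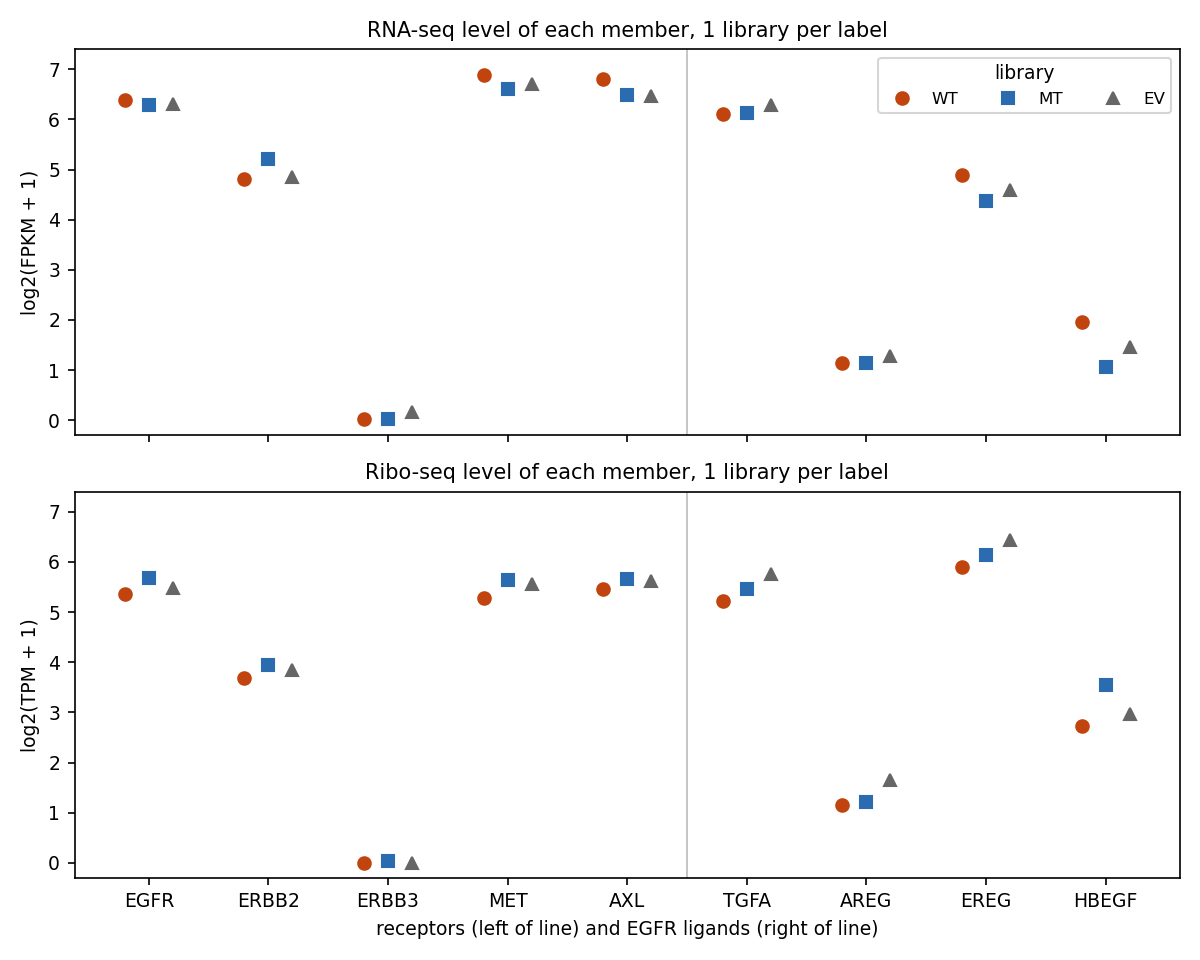
Level of each of the 9 members as log2(value + 1) in the WT, MT and EV libraries, with RNA-seq in FPKM above and Ribo-seq in TPM below, each point 1 library. MET and AXL lead the mRNA panel, EREG leads the footprint panel at 58.8 to 85.8 TPM, and ERBB3 lies at the floor of both.

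Footprints put the same genes in another order. EREG had the highest mean (71.4 TPM, 58.8 to 85.8), followed by AXL (47.0, 43.3 to 49.8), EGFR (44.8, 40.1 to 50.3), MET (44.3, 38.2 to 48.7), TGFA (44.1, 36.4 to 53.0), ERBB2 (13.2, 11.8 to 14.5), HBEGF (7.72, 5.61 to 10.7) and AREG (1.57, 1.24 to 2.15). AXL, EGFR, MET and TGFA overlapped one another. Read as a ratio of Ribo-seq TPM to RNA-seq FPKM, EREG stood at 2.05 in WT, 3.54 in MT and 3.70 in EV, and HBEGF at 1.94 in WT, 9.76 in MT and 3.89 in EV, where the median of 9712 genes was 1.15 in WT, 1.13 in MT and 1.12 in EV. MET was at 0.326 in WT, 0.505 in MT and 0.443 in EV. EGFR, ERBB2, MET, AXL and TGFA all lay between percentiles 9.44 and 30.7 of those genes, and EREG and HBEGF between 72.0 and 98.1. Receptor messages and TGFA thus had a lower ratio than the median gene in each library, and EREG and HBEGF a higher one. The ratio joins unlike units and the counting method is not stated. The part of scaling in these places was not tested. AREG lay below the median in WT (percentile 45.3) and MT (48.6) and above it in EV (62.1).

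**Figure D2:**
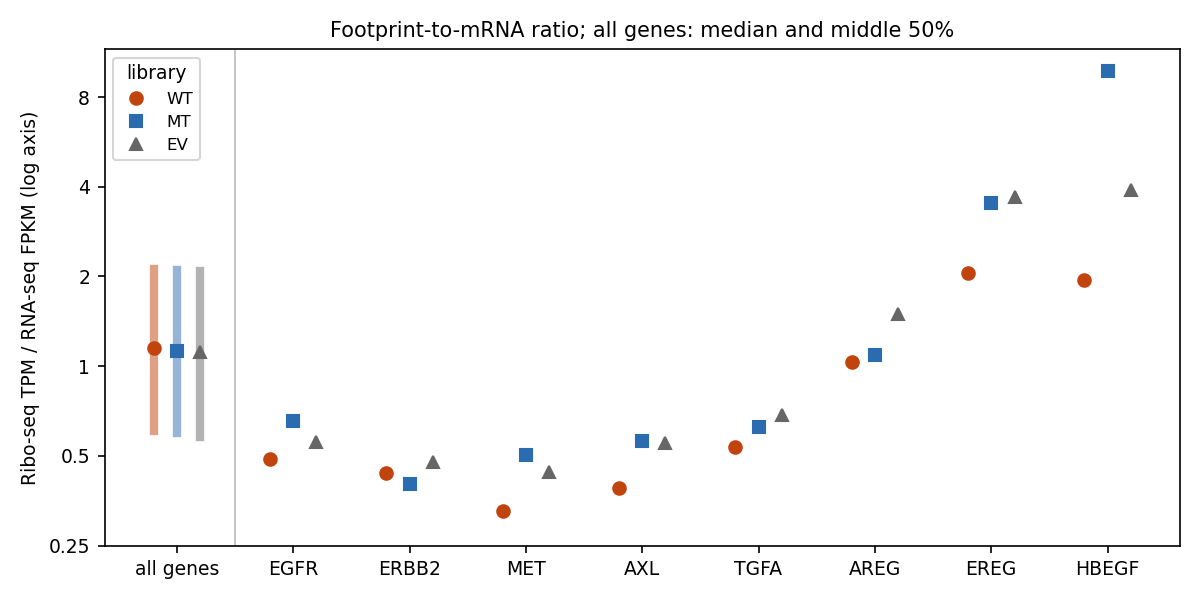
Footprint-to-mRNA ratio (Ribo-seq TPM over RNA-seq FPKM, log axis) of the 8 measured members in WT, MT and EV, beside the median and middle 50% of 9712 genes at 1 unit or more in all 6 libraries. Receptors and TGFA sit below the median of all genes, and EREG and HBEGF above it.

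Comparing WT with EV asks what differed in these genes with PHYHD1 at its WT level. No member passed the 2-fold rule, a difference of at least 1 in log2(value + 1), in mRNA (0 of 8, against 0.499% of 11032 genes) or in footprints (0 of 8, against 3.36% of 10700). AXL mRNA stood at 111 FPKM in WT and 87.1 FPKM in EV, a log2 difference of 0.35. HBEGF, whose product is anchored to heparan sulphate, stood at 2.89 FPKM in WT and 1.76 FPKM in EV, a difference of 0.49. Both lay above the middle 90% of genes in their level class (-0.31 to 0.30 for genes at 10 to 100 FPKM, -0.49 to 0.40 for those at 1 to 10). The remaining 6 were inside it, from -0.18 for TGFA to 0.29 for EREG. In these bulk libraries, fewer cells with a message and less message per cell cannot be told apart.

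In footprints all 8 measured members lay below EV, with a median of -0.26, against a median of 0.03 over all genes and 53.4% of genes above 0. Over 17 other receptor tyrosine kinase genes the median was -0.24, with 11 below 0. TGFA, EREG and AREG lay furthest down. TGFA, transforming growth factor alpha, had footprints of 36.4 TPM in WT and 53.0 TPM in EV, a log2 difference of -0.53. EREG, epiregulin, had 58.8 TPM in WT and 85.8 TPM in EV, a difference of -0.54. These 2 were below the middle 90% of genes at 10 to 100 TPM (-0.51 to 0.56). AREG, amphiregulin, had 1.24 TPM in WT and 2.15 TPM in EV, and HBEGF 5.61 TPM in WT and 6.85 TPM in EV, both inside the wider range of low genes. Receptor differences ran from -0.13 to -0.26. EGFR had 40.1 TPM in WT and 43.9 TPM in EV, MET 38.2 TPM in WT and 46.0 TPM in EV, AXL 43.3 TPM in WT and 48.0 TPM in EV, and ERBB2 11.8 TPM in WT and 13.3 TPM in EV. The summed ligand footprints came to 102 TPM in WT and 148 TPM in EV, while summed ligand mRNA was 101 FPKM in WT and 104 FPKM in EV. AREG values are uncertain, since its alias AREGB names a duplicate copy in older assemblies that could split reads.

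Translational efficiency, the footprint difference minus the mRNA difference, was negative for all 8 members in WT over EV, from -0.11 (ERBB2) to -0.83 (EREG), with a median of -0.39 against 0.04 over 10335 genes. Of those genes 53.7% lay above 0. No member passed the rule, which 4.21% of genes did. EREG was the member outside the middle 90% of its class (-0.56 to 0.59), with mRNA of 28.7 FPKM in WT and 23.2 FPKM in EV beside its lower footprints. HBEGF at -0.74, AXL at -0.49, MET at -0.43 and EGFR at -0.19 showed the same combination of mRNA above EV and footprints below EV. In ERBB2, TGFA and AREG both were below EV. Over 17 other receptor tyrosine kinase genes the median was -0.20, with 12 below 0.

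**Figure D3:**
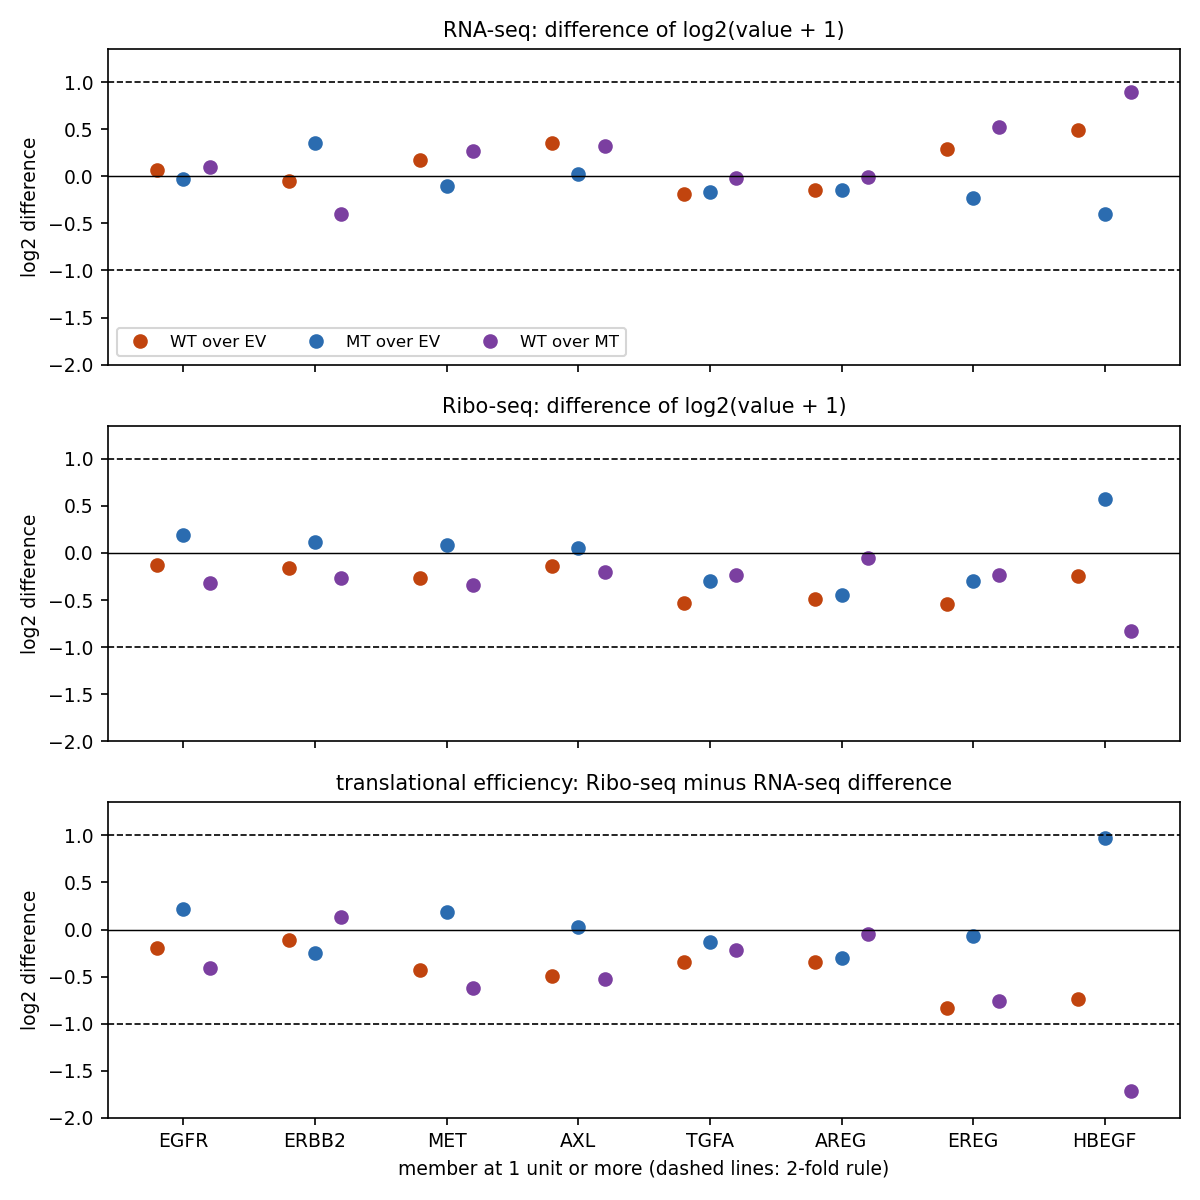
Log2 differences of the 8 measured members in mRNA, footprints and translational efficiency, with WT over EV, MT over EV and WT over MT side by side and dashed lines at the 2-fold rule. In WT over EV all footprint points lie below 0, and HBEGF in WT over MT at -1.72 is the point past the rule.

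The MT library, set against the same EV library, asks the same of the label that the title gives as PHYHD1 lacking 107-130. Again no member passed the rule in mRNA (0 of 8, against 0.29% of 11016 genes), in footprints (0 of 8, against 2.83% of 10737) or in translational efficiency (0 of 8, against 3.51% of 10331). ERBB2 mRNA, which encodes the family member without a known ligand, was 36.0 FPKM in MT and 27.9 FPKM in EV, a log2 difference of 0.36 above the middle 90% of its class (-0.28 to 0.25). Its footprints were 14.5 TPM in MT and 13.3 TPM in EV. All 4 ligand mRNAs were below EV, from -0.14 for AREG to -0.40 for HBEGF, with EREG at 19.7 FPKM in MT and 23.2 in EV and TGFA at 68.9 FPKM in MT and 77.5 in EV. Every one of them was inside the middle 90% of its class, and 48.7% of all genes were above EV in mRNA.

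In MT footprints the 4 measured receptors lay slightly above EV. Their differences ran from 0.05 for AXL to 0.19 for EGFR (50.3 TPM in MT and 43.9 TPM in EV). TGFA (43.0 TPM in MT and 53.0 in EV), EREG (69.5 TPM in MT and 85.8 in EV) and AREG (1.32 TPM in MT and 2.15 in EV) lay below it. HBEGF was the exception among the ligands, with 10.7 TPM in MT and 6.85 TPM in EV on mRNA of 1.10 FPKM in MT and 1.76 FPKM in EV. Its translational efficiency difference of 0.98 was just short of the rule and above the middle 90% of low genes (-0.74 to 0.87). All 8 footprint differences were inside the middle 90% of their classes, and 52.1% of all genes were above EV in footprints. Over 18 other receptor tyrosine kinase genes the footprint median was 0.05, with 5 below 0, so the lean of the receptors is shared.

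WT against MT compares 2 libraries that the title gives as 2 forms of PHYHD1. PHYHD1 footprints differed as well, at 222 TPM in WT and 905 TPM in MT. Form and level of PHYHD1 therefore cannot be told apart. In mRNA no member passed the rule (0 of 8, against 0.508% of 11013 genes), but 5 of the 8 lay outside the middle 90% of their classes. HBEGF mRNA was 2.89 FPKM in WT and 1.10 FPKM in MT (log2 difference 0.89), and EREG 28.7 FPKM in WT and 19.7 FPKM in MT (0.52). AXL mRNA was 111 FPKM in WT and 88.8 FPKM in MT (0.32), and MET mRNA 117 FPKM in WT and 96.6 FPKM in MT (0.27). These 4 were above their class ranges. ERBB2 was below its range, with 26.9 FPKM in WT and 36.0 FPKM in MT (-0.41). In footprints all 8 members lay below MT, while 51.6% of all genes lay above it. The member median was -0.25, against 0.01 over all genes. Over 18 other receptor tyrosine kinase genes it was -0.34, with 14 below 0. No member passed the rule in footprints (3.19% of 10752 genes). EGFR, MET, AXL, EREG and HBEGF thus had mRNA above MT and footprints below it, while ERBB2, TGFA and AREG lay below MT in both. HBEGF had 5.61 TPM in WT and 10.7 TPM in MT, a log2 difference of -0.83, just below the middle 90% of low genes (-0.82 to 0.76).

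HBEGF alone passed the rule in translational efficiency (1 of 8, against 4.82% of 10352 genes), at -1.72 for WT over MT. At a minimum of 10 units HBEGF was no longer measured and the count was 0. Its mRNA was 1.10 to 2.89 FPKM over the 3 libraries, the lowest mean of the measured members after AREG, and the number of reads behind it is unknown. EREG (-0.76) and MET (-0.62) were below the middle 90% of their class (-0.61 to 0.59). ERBB2 was the member above 0 (0.14), where 50.8% of all genes lay. Over 18 other receptor tyrosine kinase genes the median was -0.37, with 13 below 0. The 3 comparisons share libraries, so the WT over MT values follow from the other 2 and add no independent observation.

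Of 62 further genes of the pathway, 52 or 53 reached 1 FPKM and 49 reached 1 TPM in a comparison. None passed the rule in mRNA, which 0.499% of all genes did in WT over EV. The share was 0.29% in MT over EV and 0.508% in WT over MT. In footprints 0 of 49 passed in WT over EV (3.36% of all genes), 2 of 49 in MT over EV (2.83%), both upward, and 0 of 49 in WT over MT (3.19%). MERTK, a relative of AXL, had 2.85 TPM in MT and 0.762 TPM in EV, and PIK3CB, a catalytic PI3K subunit, 15.6 TPM in MT and 7.08 TPM in EV. In WT, MERTK stood at 2.12 TPM and PIK3CB at 13.6 TPM. Translational efficiency passed the rule for 1 of 49 genes in WT over EV (4.21% of all genes), 1 of 49 in MT over EV (3.51%) and 2 of 49 in WT over MT (4.82%). These counts are close to or below what those shares give in a list of this size, and the genes are named as descriptions. The PI3K regulatory subunit gene PIK3R2 was higher in translational efficiency in WT than in EV (1.14), with footprints of 4.39 TPM in WT and 2.35 TPM in EV (0.69, short of the rule) and mRNA of 15.6 FPKM in WT and 21.7 FPKM in EV (-0.45).

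The PI3K and AKT genes as a list had a footprint median of 0.60 in WT over EV, with 6 of 8 above 0, and 0.11 in MT over EV, where the median of all genes was 0.03 and 0.01. Of all genes, 53.4% lay above 0 in footprints of WT over EV. The adaptors (12 measured, median 0.01 in WT over EV) and the RAS to ERK genes (10 measured, median -0.03) had medians close to that of all genes. Within the RAS to ERK list the differences ran from -0.80 for ARAF (6.37 TPM in WT and 11.8 TPM in EV) to 0.25 for MAP2K1 (56.4 TPM in WT and 47.2 TPM in EV), with MAPK3 at -0.50 and HRAS at -0.44. SHC1, an adaptor that docks on EGFR, had 27.1 TPM in WT, 33.0 in MT and 29.7 in EV, and PTPN11, the phosphatase SHP2, had 12.6 TPM in WT, 14.9 in MT and 13.9 in EV. NRAS had 113 TPM in WT, 106.7 TPM in MT and 101.1 TPM in EV, and MAP2K2 had 37.0 TPM in WT, 33.5 TPM in MT and 38.3 TPM in EV. The protease genes ADAM10 (137 TPM in WT, 129.5 in MT, 113 in EV) and ADAM17 (31.6 TPM in WT, 34.0 in MT, 26.4 in EV), which release EGFR ligands, lay above EV in footprints in both WT and MT, where TGFA and EREG lay below it. In mRNA all 4 shedding genes lay below EV in both, with a median of -0.24 in WT and -0.03 in MT. Of all genes, 48.9% lay above EV in mRNA of WT and 48.7% in that of MT. Of the 4 shedding genes RHBDF1, an inactive rhomboid that guides ADAM17, lay below EV in footprints in both (log2 differences of -0.62 in WT and -0.51 in MT), with mRNA differences of -0.53 in WT and -0.03 in MT.

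Among the inhibitors, ERRFI1, whose product MIG6 binds and blocks the EGFR kinase, had mRNA of 116 FPKM in WT, 69.2 FPKM in MT and 115.5 FPKM in EV. Its footprints were 45.2 TPM in WT, 64.7 TPM in MT and 52.1 TPM in EV, so that translational efficiency was past the rule in MT over EV (1.04) and in WT over MT (-1.24). CBLB, a ubiquitin ligase of activated receptors, passed it in WT over MT (1.01), with footprints of 2.69 TPM in WT and 1.79 TPM in MT (0.40) and mRNA of 2.30 FPKM in WT and 4.03 FPKM in MT (-0.61). Of the other ligand genes 6 of 10, and of the other receptor genes 2 of 4, reached 1 FPKM in at least 1 library. HGF and NRG3 were listed at 0 in all 6 libraries, and of the 10 other ligand genes PROS1, which binds TYRO3 and MERTK, and NRG1, a ligand of ERBB3, were the most abundant. PROS1 stood at 14.1 FPKM in WT, 19.4 in MT and 17.6 in EV, and NRG1 at 13.8 FPKM in WT, 9.64 in MT and 11.8 in EV. GAS6, the ligand of AXL, stood at 11.1 FPKM in WT, 8.8 in MT and 8.8 in EV.

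**Figure D4:**
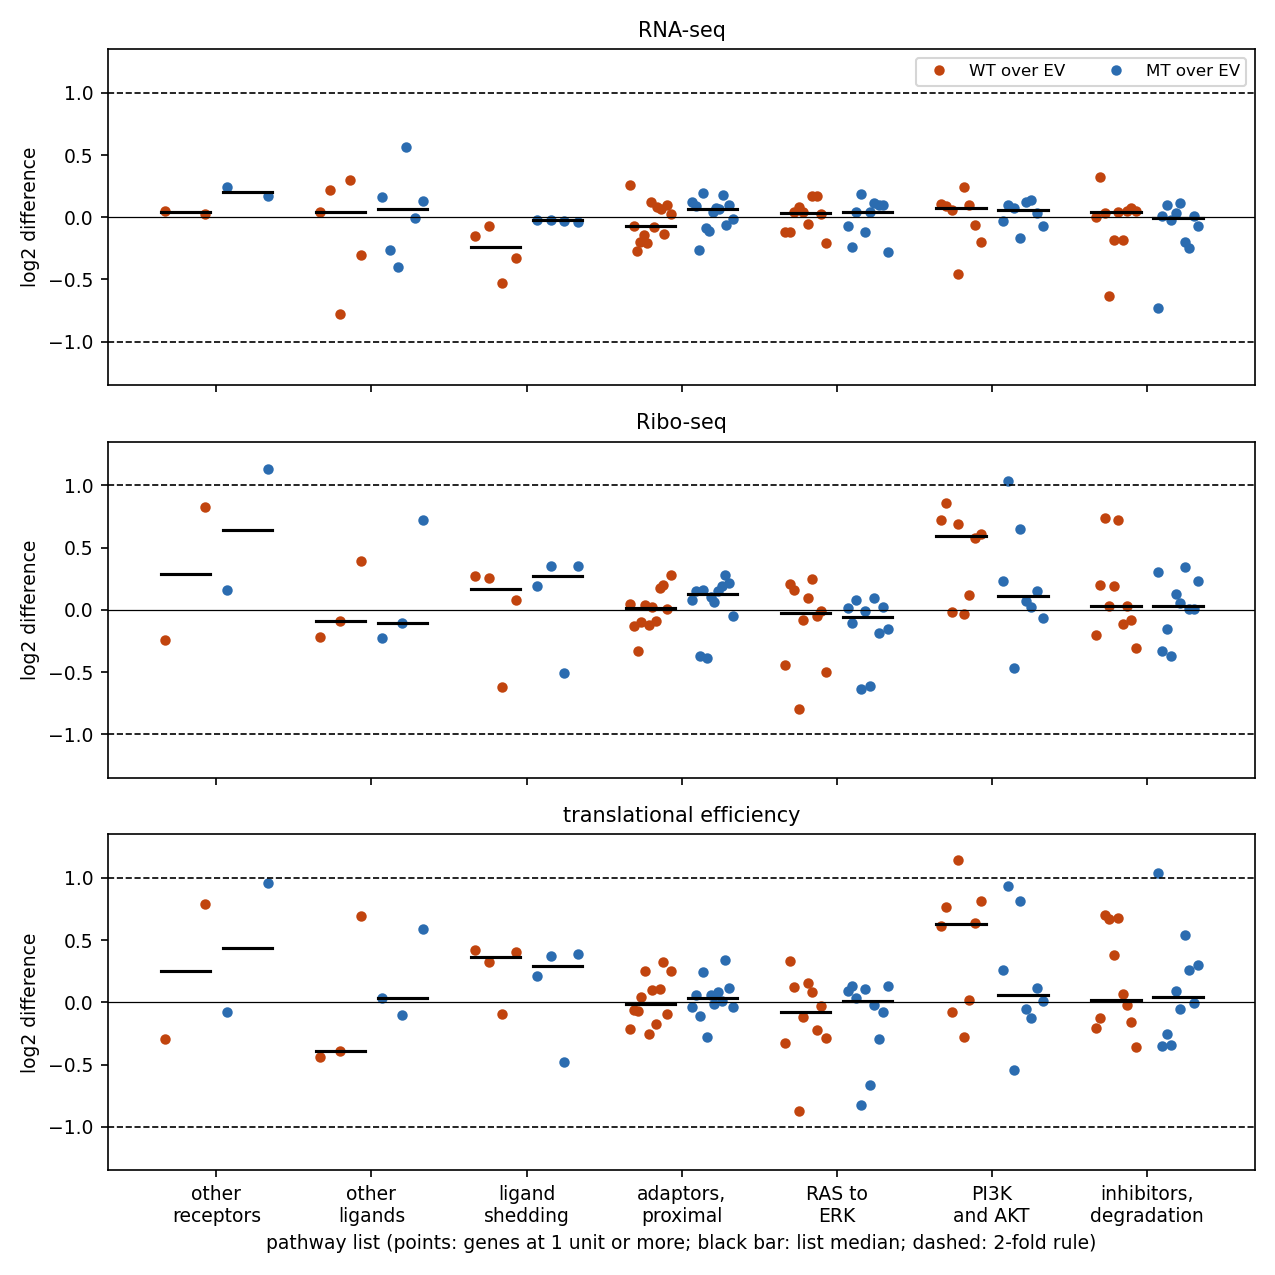
Log2 differences of pathway genes at 1 unit or more by list, for WT over EV and MT over EV, in mRNA, footprints and translational efficiency, with list medians as black bars and dashed lines at the 2-fold rule. No mRNA point passes the rule, and the PI3K and AKT list has the highest footprint median in WT over EV at 0.60.

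The genes whose pattern came nearest to EGFR, MET and AXL were sought among 4722 genes at 10 units or more in all 6 libraries, by Euclidean distance over the 4 log2 differences from EV. Nearest to EGFR were COA3, an assembly factor of cytochrome c oxidase (0.037), and SRPRA, a subunit of the signal recognition particle receptor (0.049). Nearest to MET were the myosin light chain gene MYL12A (0.054), which has a near-identical copy and is uncertain, and the phosphatase subunit gene PPP1R15A (0.059). For AXL they were SEL1L, of endoplasmic reticulum protein degradation (0.074), and the tumour necrosis factor receptor adaptor gene TRAF2 (0.080). With 4 differences per gene such likeness is a description of these libraries.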

How the data were processed

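RNA-seq and Ribo-seq of 786-O cells gave 6 libraries in 1 deposited table. Cells were given cycloheximide to stop elongation, which can shift footprints, and lysates were digested with RNase I, per the labels' protocols. The authors' RNA-seq columns carry no unit and were read as FPKM, since the deposited columns sum to 459938 to 469859; TPM over more genes cannot be told apart from this. The deposited Ribo-seq columns are TPM, each summing to 1000000. Human genome build 18 is named in the submitters' processing notes; the aligner and counting method were not stated there. Read totals are unknown, so no interval is given. Whether the 3 dishes of the design were pooled is not given.

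Of 20307 rows, 605 without a gene name (0.153% to 0.158% of RNA-seq sums, 0.513% to 0.564% of Ribo-seq) and 7 symbols with differing rows were left out. All 9 members were found. The deposited values were compared on a log2(value + 1) scale, which understates differences of low genes, for genes at 1 unit or more in a library compared (in both assays for translational efficiency). A gene passed the rule at an absolute log2 difference of 1. Level classes were set by the mean of the libraries compared (for translational efficiency, the lower of the 2 assays' means), and their middle 90% was taken over all genes of the class. Calculations used Python 3.11.15, pandas 2.3.3 and NumPy 2.4.6, and the script was tested on simulated data. Promoters of 8 members were found in the RefSeq table.

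Named genes are all members, PHYHD1, and the 2 nearest patterns of EGFR, MET and AXL. Each pathway list gave up to 4 genes past the rule or else the 2 most abundant in mRNA. RHBDF1, ARAF, MAP2K1, MAPK3, HRAS, HGF, NRG3 and GAS6 were added after their values were seen. The members, pathway lists, markers and receptor tyrosine kinase list were chosen with earlier results of these data known, the last after its values could be seen.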

Additional observations from a re-analysis of the deposited data

How the results depend on the processing

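No paired analysis was possible because each label has 1 library per assay, and for the same reason no replicate could be left out. Of the 6 alternatives, 3 recompute the 72 member differences, and none changed sign under them. A changed pseudocount cannot turn the sign of an mRNA or footprint difference, so only translational efficiency could have changed sign there. With a pseudocount of 0.1, 10 of the 72 differences moved by more than 0.1, all of them of HBEGF or AREG. Centring each ratio on its median and rescaling without mitochondrially encoded genes move all genes nearly together and by less than 0.1, so they could not have turned the sign of a larger difference. The other 3 alternatives change which genes are measured or the rule, not the differences, and at a minimum of 10 units 56 were still measured. With a pseudocount of 0.1 HBEGF passed the rule also in mRNA of WT over MT (1 member, against 1.8% of genes) and in translational efficiency of MT over EV (1 member, 7.02% of genes). With a minimum of 10 units the count in translational efficiency of WT over MT became 0, as HBEGF mRNA was no longer measured. A 1.5-fold rule gave 1 member in mRNA of WT over MT (3.23% of genes), 1 in footprints of WT over MT (12.5%), 2 in translational efficiency of WT over EV (EREG and HBEGF, 16.9%), 1 in MT over EV (13.7%) and 3 in WT over MT (MET, EREG and HBEGF, 17.7%). HBEGF and AREG mRNA lay near 1 FPKM, where the depth is unknown.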

Other observations

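Of 58 receptor tyrosine kinase genes, the 5 receptors above included, 20 reached 1 FPKM and 17 reached 1 TPM in all 3 libraries of the assay. EPHA2, an ephrin receptor, had the highest footprint level of the list in every library, with 45.7 TPM in WT, 58.6 TPM in MT and 58.1 TPM in EV. FGFR1, a fibroblast growth factor receptor, had footprints of 36.0 TPM in WT, 23.8 TPM in MT and 10.4 TPM in EV, past the 2-fold rule in WT over EV (log2 difference 1.70) and MT over EV (1.12). Its mRNA was nearly level, at 24.6 FPKM in WT, 23.5 FPKM in MT and 23.4 FPKM in EV. The insulin-like growth factor receptor gene IGF1R passed the rule downward in WT over EV, with 1.68 TPM in WT and 4.71 TPM in EV, while its mRNA was 5.59 FPKM in WT and 3.47 FPKM in EV. STYK1 was also lower in WT footprints (0.583 TPM, against 3.78 TPM in EV), with mRNA of 1.99 FPKM in WT and 0.614 FPKM in EV. The collagen receptor gene DDR1 was higher in MT footprints (9.72 TPM, against 4.20 TPM in EV) and mRNA (12.9 FPKM, against 9.06 FPKM in EV). Footprints passed the rule for 3 of 21 measured genes in WT over EV (3.36% of all genes). In MT over EV they did for 3 of 22, MERTK included (2.83% of all genes). EPHA2, FGFR1, IGF1R, STYK1 and DDR1 were named after their values were seen, and each value is from 1 library.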
